A study of Mus musculus with 8 samples.

Results

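The endothelial genes described here are 10 markers of the cells that line blood vessels, namely Pecam1, Cdh5, Cldn5, Esam, Kdr, Flt1, Tek, Tie1, Vwf and Nos3. They were taken as every non-control probe that the array design names with one of these symbols, which gave 15 of the 55681 probes, for 10 of 34763 gene names. The tissue was the dorsal root ganglion (DRG) of lumbar segments L3 to L5, which holds the cell bodies of sensory neurons. FD samples came from male mice carrying α-Gal A(-/0), a null allele of the X-linked gene for α-galactosidase A and a model of Fabry disease. Control samples came from male wildtype mice of the same age, 20 to 24 weeks, and the strain label of both groups was C57BL/6J. Each group had 8 mice, whose ganglia were pooled in pairs into 4 samples, and the labels name no drug. The FD and wildtype mice came from separate inbred colonies, so that genotype and colony cannot be told apart in these data. RNA was labelled with Cy3 and each sample was hybridised to 1 array of a 1-colour Agilent design.

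Endothelial cells adhere to each other through VE-cadherin (Cdh5), PECAM-1 (Pecam1) and ESAM (Esam) and, where vessels form a tight barrier, through claudin-5 (Cldn5). They respond to vascular endothelial growth factors through the receptor tyrosine kinases VEGFR2 (Kdr) and VEGFR1 (Flt1), and to angiopoietins through Tie2 (Tek) with its partner Tie1. They also store von Willebrand factor (Vwf) for haemostasis and make nitric oxide through endothelial nitric oxide synthase (Nos3), and vessel disease is a known feature of Fabry disease. The capillaries of the DRG lie among neuron bodies and are known to be more permeable than those of the nerve.

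A probe of this array is a DNA oligonucleotide of 60 bases, and the values of a gene rest on how specific those bases are. The probes of the angiopoietin receptors Tie1 and Tek both lie at the end of the coding sequence, and they are shown because these related kinases could share signal. Capitals mark the bases that were identical between these 2 probes when they were aligned with a shift of 3 bases. The sequences are those of the array files, 5′ to 3′.
Tie1, chr4:118144132-118144191, minus strand of mm9: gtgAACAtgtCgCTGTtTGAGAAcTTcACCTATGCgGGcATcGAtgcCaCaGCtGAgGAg
Tek, chr4:94540624-94540683, plus strand of mm9: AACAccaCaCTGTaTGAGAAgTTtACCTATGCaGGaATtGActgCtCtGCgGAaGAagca
Of 57 aligned bases, 39 were identical (68.4%), and the longest identical run was 8 bases. The probes of Pecam1 and of one of 2 Nos3 probes also lie in coding sequence near its end, and they are shown because they carry repeat spots, which give the error within an array.
Pecam1, chr11:106540864-106540923, minus strand of mm9: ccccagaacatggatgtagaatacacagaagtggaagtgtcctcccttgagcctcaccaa
Nos3, chr5:23889636-23889695, plus strand of mm9: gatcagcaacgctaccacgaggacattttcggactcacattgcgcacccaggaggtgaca
The SD between the spots of one array was 0.041 to 0.24 log2 units for the 2 spots of Pecam1, and 0.039 to 0.11 for the 9 or 10 usable spots of this Nos3 probe. Other probes had 1 spot, except a Kdr probe with 10 spots and SDs of 0.044 to 0.088.

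Values below are log2 signals after quantile normalization, which gives all arrays the same distribution. They are compared between samples for one probe and never between probes. A probe was tested when it was well above background on all 8 arrays, as held for 29432 probes, and a gene was called when the p-value of limma, adjusted after Benjamini and Hochberg over all 29432, was below 0.05. Across the array 904 probes were called. The share of probes well above background ran from 56.5% to 60.8% per array, 0 spots were saturated, and correlations between arrays were 0.990 to 0.998. Wildtype sample 1 stood apart, with an array weight of 0.243 against 0.501 to 1.90 for the others, and values without it are given where they changed a call, a direction or an unadjusted p under 0.05, or moved a value by over 1.5 times. FD samples 1 to 3 shared a row of the slide with wildtype sample 1, and FD sample 4 shared the other row with wildtype samples 2 to 4. All 14 sensory neuron markers were tested, as was each endothelial gene, so that transcripts of both cell types were detected in all samples. The probe of Gla, the targeted gene on chromosome X, read 16.71, 16.51, 16.51 and 16.62 in FD samples 1 to 4 and 16.69, 16.72, 16.49 and 16.56 in wildtype samples 1 to 4. These values overlapped (log2 fold change -0.03, SE 0.075, adjusted p = 0.879), and where the probe lies relative to the altered part of the allele is not given in the sources used here, so it does not check the genotype labels.

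Transcripts of the endothelial genes tended to lie lower in FD DRGs, by small amounts, and none was called. The log2 fold change, FD minus wildtype, was below 0 for 8 genes and above 0 for Kdr and Nos3, where 44.7% of all tested probes lay below 0 and 55.3% above. Of the 10 genes 0 were called, against 3.07% of all tested probes (1.11% lower and 1.96% higher), and Welch's test of the methods also called 0 after adjustment. The criteria of the methods (fold change from 1.2 upwards, p up to 0.01) were met by 0 of the 10 genes, and in the limma fit by 2.36% of probes downwards and 3.67% upwards. At an unadjusted p under 0.05 limma found 5 genes lower (Vwf, Flt1, Cdh5, Tie1 and Esam) and 0 higher, against 6.98% of probes lower and 10.7% higher. By Welch's test 3 were lower. That count of 5 fell to 2 without wildtype sample 1 and to 2 without FD sample 4, and with arrays centred on the median 1 gene was lower and 1 higher, where the median of all probes stood at 0.08. The median log2 fold change was -0.17 over the 10 genes and 0.02 over all tested probes. The median size of the change, regardless of sign, was 0.17 for the 10 genes and 0.10 for all tested probes. The members share samples and cells, so these counts are not 10 independent observations. In whole tissue, fewer endothelial cells, less RNA per endothelial cell, RNA of other cells and a colony difference cannot be told apart.

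**Figure D1:**
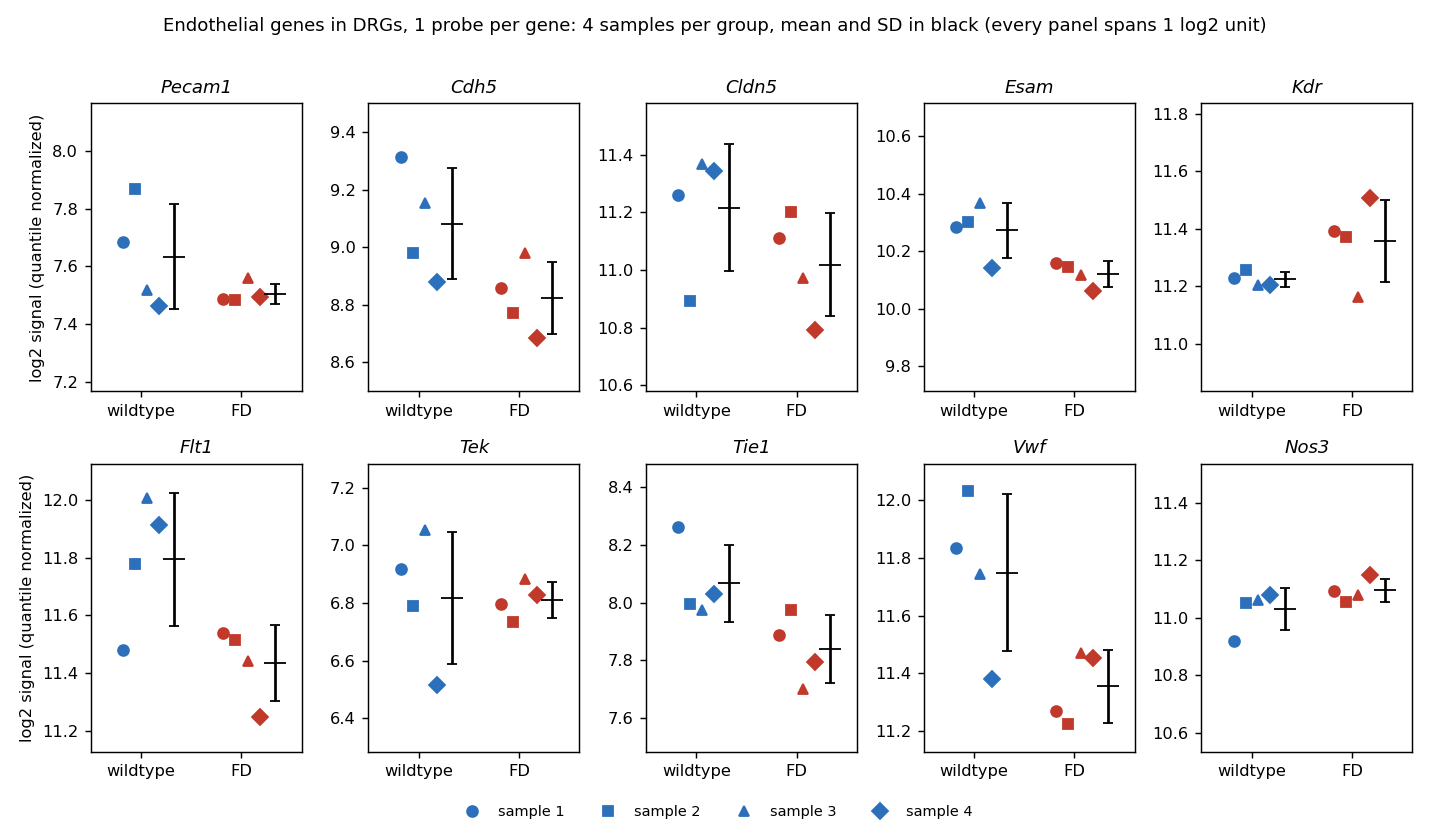
Log2 signal after quantile normalization (y axis, each panel spanning 1 log2 unit) of the brightest probe of each of the 10 endothelial genes in 4 wildtype (blue) and 4 FD (red) DRG samples, with the symbol giving the sample number and black bars the mean ± SD. The groups overlap for all genes but Tie1, where the FD values of 7.70 to 7.97 lie just under the wildtype values of 7.98 to 8.26.

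Among the junction genes, the largest difference was that of Cdh5, which encodes the cadherin of endothelial adherens junctions (chr8:106668159-106668218 in mm9). Its log2 signal was 8.86, 8.77, 8.98 and 8.69 in FD samples 1 to 4 and 9.31, 8.98, 9.15 and 8.88 in wildtype samples 1 to 4. FD sample 3 lay above wildtype sample 4, so the groups overlapped, and the highest value was that of wildtype sample 1. The log2 fold change was -0.26 (SE 0.11, 95% interval -0.50 to -0.02, unadjusted p = 0.0377, adjusted p = 0.248), or -0.44 and -0.32 within the rows of the slide. Without wildtype sample 1 it was -0.18 (unadjusted p = 0.0880), and the unadjusted p was under 0.05 in 3 of the 8 omissions of 1 sample. With the row of the slide as a block limma gave Cdh5 a change of -0.38 (unadjusted p = 0.00355, adjusted p = 0.0742), not called. Esam, a tight junction adhesion molecule also found on platelets (chr9:37345795-37345854), read 10.16, 10.14, 10.12 and 10.06 in FD samples and 10.28, 10.30, 10.37 and 10.14 in wildtype samples. Only wildtype sample 4 fell among the FD values. The change was -0.15 (SE 0.063, unadjusted p = 0.0401, adjusted p = 0.256), with -0.14 and -0.21 within rows. Its unadjusted p was under 0.05 in 1 of 8 omissions, and without wildtype sample 1 it was 0.0555 at a change of -0.15.

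Cldn5, the main claudin of endothelial tight junctions (chr16:18778046-18778105), read 11.11, 11.20, 10.97 and 10.79 in FD samples and 11.26, 10.89, 11.37 and 11.34 in wildtype samples. Wildtype sample 2 lay below 3 of the FD samples, and the change was -0.20 (SE 0.13, 95% interval -0.49 to 0.09, unadjusted p = 0.153, adjusted p = 0.457). Single samples moved it both ways, to -0.31 without wildtype sample 2 (unadjusted p = 0.0173) and to -0.12 without FD sample 4. Pecam1, an adhesion molecule of endothelium, platelets and leukocytes, read 7.49, 7.48, 7.56 and 7.49 in FD samples and 7.68, 7.87, 7.52 and 7.46 in wildtype samples. The FD samples lay close together (SD 0.036) and the wildtype samples did not (SD 0.18), so the groups overlapped, with a change of -0.13 (SE 0.090, adjusted p = 0.497). Without wildtype sample 2 the change was -0.05.

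The growth factor receptors did not move as one group. Flt1, the receptor of VEGF-A, VEGF-B and placental growth factor, had 3 probes. The brightest (chr5:148373791-148373850) read 11.54, 11.52, 11.44 and 11.25 in FD samples and 11.48, 11.78, 12.01 and 11.91 in wildtype samples. Wildtype samples 2 to 4 lay above all FD samples, whereas wildtype sample 1, the array that stood apart, lay within them. The log2 fold change was -0.36 (SE 0.12, 95% interval -0.63 to -0.09, unadjusted p = 0.0152, adjusted p = 0.162). Within rows it was 0.02 where wildtype sample 1 was the only control and -0.65 in the other row. Without wildtype sample 1 it was -0.47 and passed the threshold (adjusted p = 0.0383). With the row of the slide as a block limma gave this probe a change of -0.32 (unadjusted p = 0.0574, adjusted p = 0.228). A further Flt1 probe (chr5:148446872-148446931), on another transcript record, had a change of -0.31 (SE 0.12, unadjusted p = 0.0266, adjusted p = 0.213), and read lower in FD samples than in wildtype samples in 15 of 16 pairs. The remaining Flt1 probe was well above background on 0 arrays and was not tested.

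Kdr, the main signalling receptor of VEGF-A, gave opposite directions with its 2 probes, which lie about 1 kb apart at the 3′ end of the gene. The brighter probe (chr5:76330395-76330454) read 11.39, 11.37, 11.16 and 11.51 in FD samples and 11.23, 11.26, 11.20 and 11.20 in wildtype samples. FD samples 1, 2 and 4 were above and FD sample 3 below all wildtype samples, with a log2 fold change of 0.13 (SE 0.076, adjusted p = 0.398), which was 0.20 without FD sample 3 (unadjusted p = 0.0125) and 0.08 without FD sample 4. The probe with 10 spots (chr5:76329309-76329368) read 9.70, 9.68, 9.43 and 9.45 in FD samples and 9.88, 9.79, 9.79 and 9.72 in wildtype samples. Here all FD values lay below all wildtype values, by a gap of 0.02, and the change was -0.23 (SE 0.079, unadjusted p = 0.0185, adjusted p = 0.179). The changes of both probes differed by 0.36 log2 units in a two-sided exact permutation test over the 70 ways to assign the samples (p = 0.0286, the smallest this design allows; 0.114 after adjustment over 4 genes with 2 tested probes). For Flt1, Vwf and Nos3 the 2 tested probes differed by 0.05, 0.04 and 0.03 in size, with exact p between 0.629 and 0.743. No direction for Kdr as a gene follows from these values.

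Tie1, the orphan partner of Tie2, read 7.89, 7.97, 7.70 and 7.79 in FD samples and 8.26, 8.00, 7.98 and 8.03 in wildtype samples. Every FD sample was below every wildtype sample, which held for no other gene at its brightest probe and for 5.1% of all tested probes, but the gap between the groups was only 0.0019. The log2 fold change was -0.23 (SE 0.087, 95% interval -0.42 to -0.03, unadjusted p = 0.0287, adjusted p = 0.220), or -0.41 and -0.21 within rows. Without wildtype sample 1 it was -0.16 (unadjusted p = 0.0562), and the unadjusted p was under 0.05 in 5 of 8 omissions. With the row of the slide as a block limma gave Tie1 a change of -0.31 (unadjusted p = 0.00818, adjusted p = 0.104), not called. Tek, the angiopoietin receptor itself, read 6.80, 6.74, 6.88 and 6.83 in FD samples and 6.92, 6.79, 7.05 and 6.51 in wildtype samples. The wildtype samples enclosed all FD values and the change was -0.0081 (SE 0.11, 95% interval -0.26 to 0.24, adjusted p = 0.978), and it was above 0 under normexp background correction and without FD sample 2, wildtype sample 1 or wildtype sample 3. Over all 8 omissions it ran from -0.11 (without wildtype sample 4) to 0.07.

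Vwf, the adhesive glycoprotein of endothelial storage granules and platelets, had the largest difference among the brightest probes (chr6:125636551-125636610). Its log2 signal was 11.27, 11.22, 11.47 and 11.45 in FD samples and 11.84, 12.03, 11.75 and 11.38 in wildtype samples. Wildtype sample 4 lay within the FD values and the other wildtype samples lay above them all. The log2 fold change was -0.39 (SE 0.13, 95% interval -0.70 to -0.09, unadjusted p = 0.0163, adjusted p = 0.167), which is 1.31-fold lower, with -0.52 and -0.26 within rows. Without wildtype sample 4 it was -0.52 and passed the threshold (adjusted p = 0.0482). The other Vwf probe (chr6:125542106-125542165), which targets a part of the transcript far from the first, gave -0.43 (SE 0.15, unadjusted p = 0.0175, adjusted p = 0.173). It was dim, at 5.62 to 6.30 in FD samples and 6.17 to 6.57 in wildtype samples, and the groups overlapped.

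Nos3, the endothelial source of nitric oxide, differed in direction from most of the list. Its brighter probe (chr5:23890038-23890097) read 11.09, 11.05, 11.08 and 11.15 in FD samples and 10.92, 11.05, 11.06 and 11.08 in wildtype samples, a change of 0.07 (SE 0.057, adjusted p = 0.586), or 0.03 without wildtype sample 1. The probe printed above read 8.94, 8.92, 9.01 and 8.91 in FD samples and 8.88, 8.90, 8.83 and 8.80 in wildtype samples. All FD values of that probe lay above all wildtype values, by 0.01, with a change of 0.09 (SE 0.053, 95% interval -0.03 to 0.21, adjusted p = 0.398). Such a separation upwards was seen for 8.3% of all tested probes.

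**Figure D2:**
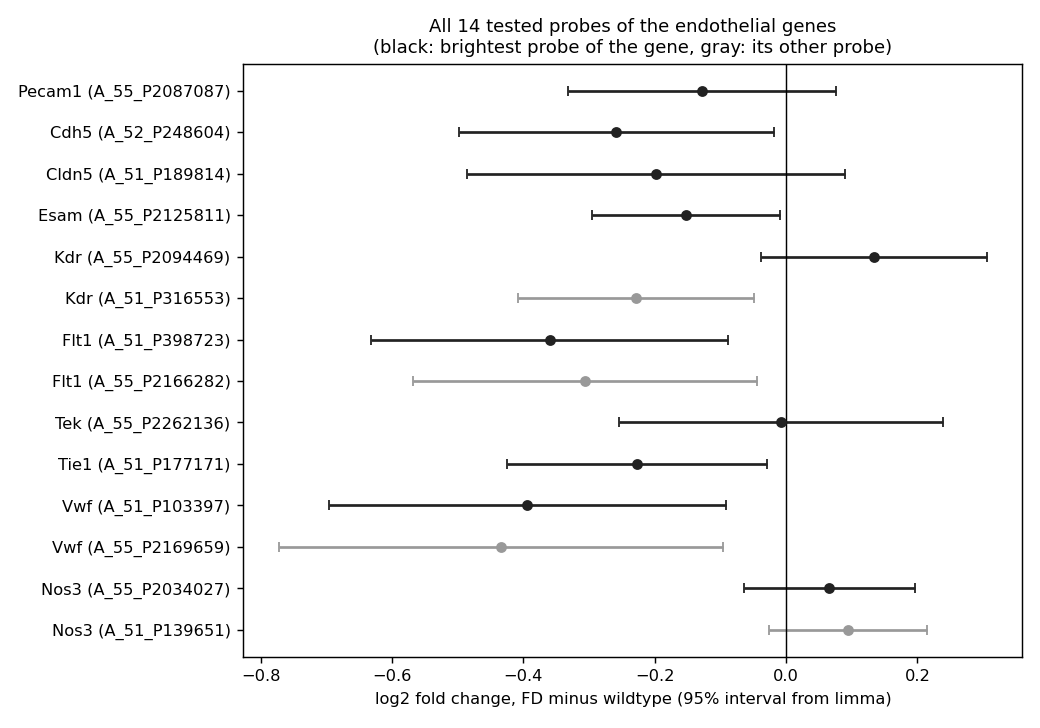
Log2 fold change, FD minus wildtype (x axis), with the 95% interval of limma for each of the 14 tested probes of the 10 genes, with the brightest probe of a gene in black and its other probe in gray. The 2 probes agree in sign for Flt1, Vwf and Nos3 and lie on opposite sides of 0 for Kdr, at 0.13 and -0.23.

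Over the 14 tested probes, limma called 0, found 8 lower at an unadjusted p under 0.05, and placed 11 below 0. The intervals of all 14 left out a 2-fold change: the farthest bound was 1.71-fold lower on one side and 1.24-fold higher on the other. Differences within these bounds were not resolved by 4 arrays a group.

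Sample by sample, the endothelial profile was the mean over the 10 genes of the log2 signal, each centred on its own mean over the 8 samples. It was -0.05, -0.06, -0.08 and -0.11 in FD samples 1 to 4 and 0.11, 0.08, 0.13 and -0.02 in wildtype samples 1 to 4. FD sample 4 was the lowest and held the lowest value of all samples for 4 of the 10 genes, and wildtype sample 4 was nearest to the FD samples. Summed over the genes, the linear signal had log2 values of 13.79 to 13.84 in FD samples and 13.95 to 14.07 in wildtype samples, without overlap. Here and below, such sums give bright probes the most weight, and 5.1% of all tested probes separated downwards on their own. Across the 8 samples Esam followed the mean of the other 9 genes most closely (Pearson r = 0.97) and Kdr (r = -0.64) and Nos3 (r = -0.71) ran against it. These correlations contain the group difference, and within groups that of Esam was 0.96, that of Kdr -0.30 and that of Nos3 -0.57. Of the others, Tek (0.70) and Cdh5 (0.49) followed the rest within groups. Vwf (0.08), Pecam1 (0.04), Tie1 (-0.04), Cldn5 (-0.26) and Flt1 (-0.34) had values near or below 0. With 4 samples a group these correlations are imprecise. They do not settle whether the list shares a profile beyond the group difference.

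Of 21053 other genes ranked by Pearson correlation with this profile over the 8 samples, the 10 most alike were Entpd3, Gm1971, Stk16, Vgll4, Gm16340, Pmp22, a transcript without a gene name, Fam188b2, Gm5833 and Ubash3b, with r from 0.95 to 0.99. None of them was in the other lists of endothelial genes used here (0 of 10). Those lists held only 104 tested genes, so this count says little about the profile. Pmp22, a myelin protein, was in the Schwann cell list. Gm1971 (log2 fold change -0.62, adjusted p = 0.0469) and Fam188b2 (-0.40, adjusted p = 0.0320) were called lower. The ranking describes 8 samples and contains the difference between the groups.

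The wider vascular lists held a few called genes, most of them higher in FD DRGs. These values come from whole ganglia and do not show in which cells a change arose. In 10 lists of ligands, partner receptors, junction proteins, nitric oxide enzymes, haemostatic factors, adhesion molecules, transcription factors, other endothelial markers, barrier transporters and lymphatic markers, 104 of 121 genes were tested. Of these 1 was called lower and 5 higher (5.77% called, against 3.07% of all tested probes), 62 lay below 0 (59.6%, against 44.7%), and the median log2 fold change was -0.04. At an unadjusted p under 0.05, 12 were lower and 11 higher, where 6.98% and 10.7% of all tested probes were. Welch's test called 0 of the 104 after adjustment.

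Among the ligands, Vegfb, which signals through Flt1, was called higher, with a change of 0.53 (SE 0.10) and an adjusted p of 0.0311. Its values were 11.31 to 11.43 in FD samples and 10.56 to 11.07 in wildtype samples, so the groups did not overlap. The other 8 of the 9 tested ligands were not called. At an unadjusted p under 0.05 limma found 3 ligands higher and 0 lower, against 10.7% and 6.98% of all tested probes. Besides Vegfb these were Apln (0.27, adjusted p = 0.0867) and Angpt2 (0.20, adjusted p = 0.206). Among 12 tested partner receptors 0 were called by limma, 10 lay below 0 (44.7% of all tested probes did) and 5 were lower at an unadjusted p under 0.05 (6.98% of all tested probes were). These were Acvrl1, Robo4, Plxnd1, Eng and Aplnr. Acvrl1, the endothelial receptor of bone morphogenetic proteins 9 and 10, had the smallest p (-0.35, SE 0.11, adjusted p = 0.138), followed by Robo4 (-0.23, adjusted p = 0.194). The median of this list, -0.12, was the nearest to that of the 10 genes among the receptor, ligand and junction lists.

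Among 9 tested junction partners limma called 0, and 0 passed at an unadjusted p under 0.05. Their changes ran from -0.16 to 0.09, and the smallest p belonged to the adhesion molecule Icam2 (-0.15, adjusted p = 0.537) and the protocadherin Pcdh12 (-0.16, adjusted p = 0.565). In the nitric oxide pathway 1 of 14 genes was called, Gch1, which makes the cofactor of nitric oxide synthases (0.30, SE 0.063, adjusted p = 0.0445). Its other probe was called higher too (0.52, adjusted p = 0.00644). Of the 14 genes 11 lay above 0, and limma found 3 higher and 0 lower at an unadjusted p under 0.05. Among 22 other endothelial markers, Mmrn2, an endothelial matrix protein, was called lower (-0.47, SE 0.094, adjusted p = 0.0361) and Adgrf5, an adhesion receptor, higher (0.42, SE 0.081, adjusted p = 0.0316). Of these 22 genes 15 lay below 0, and 4 were lower and 1 higher at an unadjusted p under 0.05. Of 8 transporters, the glucose transporter Slc2a1 (0.33, adjusted p = 0.0412) and the transferrin receptor Tfrc (0.36, adjusted p = 0.0206) were called higher, and the other 2 Tfrc probes were not called (0.20 and 0.31). The authors used Tfrc as a reference gene for quantitative PCR in separate mice, with the α-Gal A(-/0) line backcrossed. There they report it as stable between the groups. At an unadjusted p under 0.05, 1 transporter was lower and 3 were higher, as were 6.98% and 10.7% of all tested probes.

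Several of these calls lay close to the threshold. With 1 of the 8 samples left out in turn, which also lowers the number of arrays and gave 414 to 1038 called probes across the array against 904, Tfrc stayed called in 3 of 8 omissions, Vegfb and Adgrf5 in 2, Mmrn2 and Slc2a1 in 1 and the brighter Gch1 probe in 0. The adjusted p reached at most 0.139, and the other Gch1 probe stayed called in all 8 (adjusted p up to 0.0286). The log2 fold changes kept their direction, at 0.34 to 0.40 for Tfrc, 0.43 to 0.60 for Vegfb, 0.37 to 0.47 for Adgrf5, -0.51 to -0.40 for Mmrn2, 0.29 to 0.37 for Slc2a1 and 0.26 to 0.33 for the brighter Gch1 probe. With the row of the slide as a block, Vegfb, Mmrn2 and Adgrf5 were not called (adjusted p = 0.0715, 0.0652 and 0.0784), nor was Mmrn2 with arrays centred on the median (-0.38, adjusted p = 0.0840).

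The remaining vascular lists had 0 calls by limma. Of 18 transcription factors 15 lay below 0 (median -0.09), with Elk3 (-0.29, adjusted p = 0.127) and Lmo2 (0.16, adjusted p = 0.157) at the smallest p, and at an unadjusted p under 0.05 1 was lower and 1 higher. Of 6 haemostatic genes 5 lay above 0, and Thbd, which encodes thrombomodulin, was at -0.14 and F8 at 0.17 (adjusted p = 0.269 and 0.446), with 1 lower at an unadjusted p under 0.05. The 3 tested adhesion molecules of activated endothelium all lay below 0, among them Vcam1 at -0.32 and Selp at -0.22 (adjusted p = 0.301 and 0.436). Icam1, Sele and Madcam1 were not well above background on all arrays. Lyve1 (0.25) and Pdpn (-0.07) of the lymphatic list were not called, and at an unadjusted p under 0.05 0 genes of the last 2 lists passed.

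**Figure D3:**
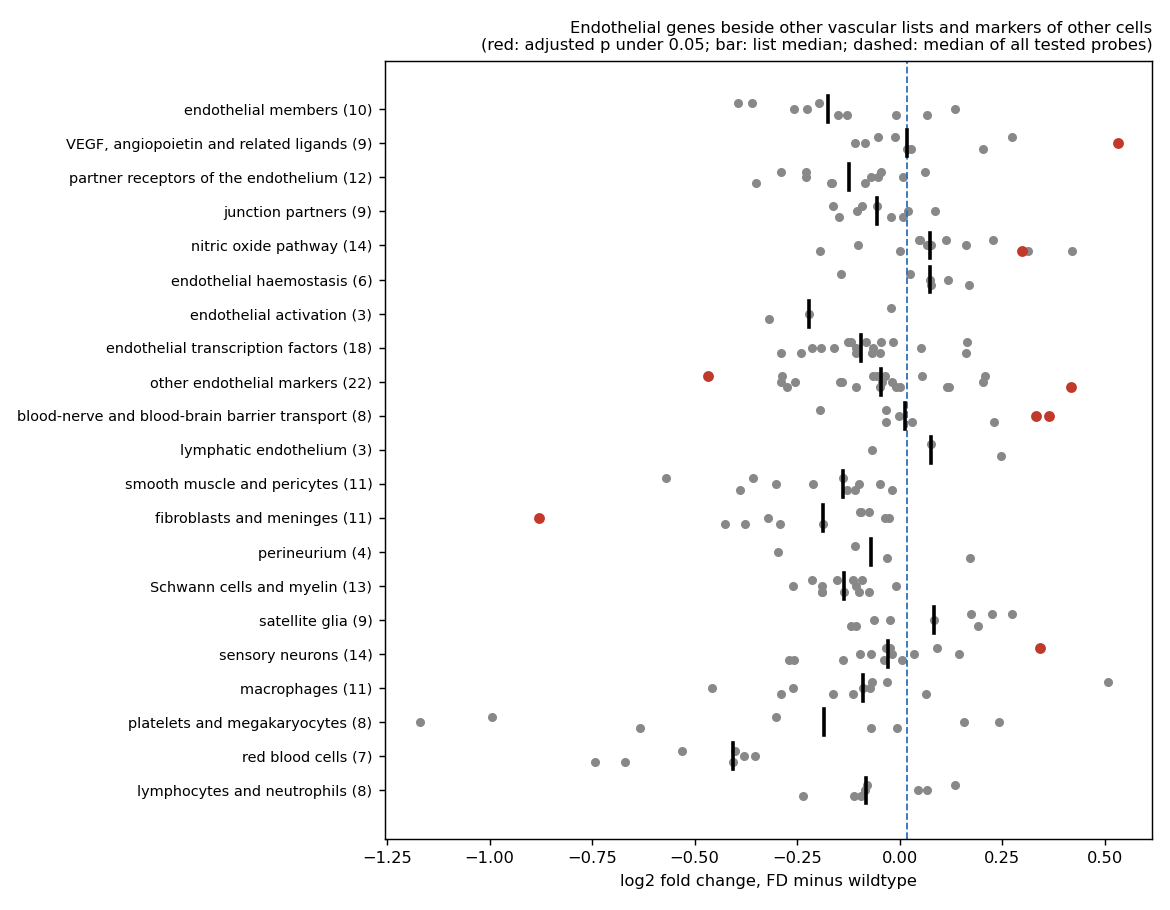
Log2 fold change, FD minus wildtype (x axis), of each tested gene in the 10 endothelial genes (top), 10 further vascular lists and 10 lists of markers of other cells, with the number of tested genes in brackets, called genes in red, list medians as black bars and the median of all tested probes as a dashed line. The median of the 10 endothelial genes, -0.17, lies near those of fibroblasts (-0.19), platelets (-0.19) and Schwann cells (-0.14), and that of red blood cells is lower at -0.41.

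Markers of several other cells also lay lower in FD DRGs. All 11 tested smooth muscle and pericyte genes (median -0.14), all 11 fibroblast genes (median -0.19), all 13 Schwann cell genes (median -0.14) and all 7 red blood cell genes (median -0.41) lay below 0. Of these 4 lists only Fmod, a fibroblast proteoglycan, was called (-0.88, SE 0.15, adjusted p = 0.0163), whereas 1, 3, 4 and 4 genes were lower at an unadjusted p under 0.05, as were 6.98% of all tested probes. The genes with the smallest p were Cspg4 (-0.39, adjusted p = 0.149) and Acta2 (-0.36, adjusted p = 0.301) for smooth muscle and pericytes, Mbp (-0.19, adjusted p = 0.149) and Cldn19 (-0.26, adjusted p = 0.223) for Schwann cells, and Hbb-b2 (-0.74, adjusted p = 0.197) and Slc4a1 (-0.67, adjusted p = 0.213) for red blood cells. The summed log2 signal of the red blood cell genes was 16.28 to 17.00 in FD samples and 16.81 to 17.36 in wildtype samples, and that of the smooth muscle genes 13.17 to 13.29 and 13.22 to 13.60. For the fibroblast genes it was 16.84 to 17.08 and 17.09 to 17.38, and for the Schwann cell genes 17.31 to 17.42 and 17.45 to 17.60, without overlap in either list. Des, Dpt and Epb42 were not well above background on all arrays. The part of these lists in the endothelial differences was not tested.

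Platelets also carry Vwf, Esam and Pecam1, and 6 of 8 tested platelet genes lay below 0 (median -0.19), with 0 called and 1, Pf4, lower at an unadjusted p under 0.05 (-0.63, adjusted p = 0.132). Gp1bb was at 0.24 (adjusted p = 0.404), and Gp9 and Gp6 were not well above background on all arrays. The summed signal was 12.05 to 12.31 in FD samples and 12.19 to 13.00 in wildtype samples, and its part in the values of Vwf was not tested. In contrast, the medians of satellite glia (0.08 over 9 genes) and sensory neurons (-0.03 over 14 genes) lay close to that of all probes. At an unadjusted p under 0.05 limma found 2 neuronal genes lower and 2 higher, and 0 glial genes lower and 1 higher. Of all tested probes 6.98% were lower and 10.7% higher, so a median near 0 does not mean that no neuronal gene differed. Ednrb (0.27, adjusted p = 0.0546) and Slc1a3 (0.19, adjusted p = 0.365) led the glial list, and Tac1, the precursor of substance P, was called higher among the neuronal genes (0.34, adjusted p = 0.0493). Tac1 stayed called in 1 of 8 omissions of a sample, and Fmod in 7, the exception being FD sample 2 (adjusted p = 0.0593). The other lists were macrophages (9 of 11 below 0, Cd68 at 0.51 and Aif1 at -0.46), lymphocytes and neutrophils (5 of 8 below 0, Ptprc at -0.24 and Cd79a at -0.08) and perineurium (3 of 4 below 0, Itgb4 at -0.30 and Perp at 0.17). Of these 3 lists limma called 0 genes, and at an unadjusted p under 0.05 1 macrophage gene was lower and 1 higher and 1 perineurial gene lower.

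Because the mice came from separate colonies, called probes within 1 Mb of each endothelial gene were counted by the positions in the files. There were 0 near Pecam1, Cdh5, Esam, Flt1, Tek and Vwf, 1 near Cldn5 (Prodh, 0.51, adjusted p = 0.0433) and 1 near Kdr (Gm7271, -0.32, adjusted p = 0.0492). Near Nos3 5 of 66 tested probes (7.58%) were called higher, all for 2 overlapping noncoding transcripts at the edge of the window. Near Tie1 5 of 54 tested probes (9.26%) were called, against 3.07% of all tested probes. Cfap57 lay 83.0 kb from the Tie1 probe and was higher, by a log2 fold change of 1.10 (SE 0.074, adjusted p = 0.000114), and it stayed called in all 8 omissions of 1 sample. Med8, at 56.5 kb on the other side, was lower by a log2 fold change of -0.34 (adjusted p = 0.0157), Hyi was higher (0.29, adjusted p = 0.0165), Slc2a1 was higher as given above, and 1 of 2 Ermap probes was lower (-0.79, adjusted p = 0.0155), the other lying at 0.08 (adjusted p = 0.564). The lower Ermap probe stayed called in all 8 omissions but not with the row of the slide as a block (adjusted p = 0.0507). Med8 stayed called in 4 omissions and Hyi in 2, and Med8 was not called with arrays centred on the median (-0.23, adjusted p = 0.131). The called neighbours of Tie1 thus lay in both directions, with Med8 the nearest to it. Neighbours were not counted for called genes of the other lists, such as Mmrn2 on chromosome 14. The part of the separate colonies in those calls was not tested.

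**Figure D4:**
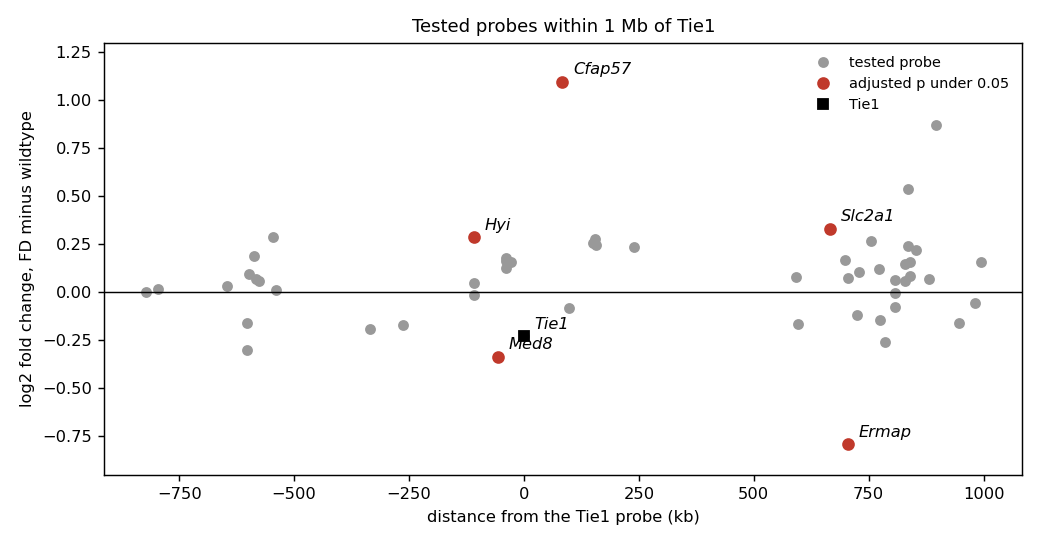
Log2 fold change, FD minus wildtype (y axis), of the tested probes within 1 Mb of Tie1 against the distance from the Tie1 probe in kb (x axis), with called probes in red and named and Tie1 as a black square. Called probes lie on both sides of 0, from Cfap57 at 1.10 to an Ermap probe at -0.79, and Tie1 itself lies at -0.23.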

How the data were processed

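DRGs of 4 FD and 4 wildtype samples, each pooled from 2 mice, were profiled on 1-colour arrays. The deposited scanner files hold the intensity of each spot as the authors extracted it with Agilent Feature Extraction 10.7.3.1, background corrected by that software and not normalized between arrays, with probe positions in mm9. The authors also deposited a table of log2 values after quantile normalization, used as an alternative. Control spots and spots flagged as outliers (93 to 221 per array) were left out, spots of a probe were averaged, and log2 intensities were quantile normalized as in the methods. Probes well above background on all 8 arrays (29432) were compared with limma 3.58.1 in R 4.3.3, with Benjamini-Hochberg adjustment, without covariates. The brightest tested probe stood for a gene. No read depth applies, and the number of arrays limits the precision. The fit was tested on simulated data.

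The 10 genes and all lists were chosen with earlier results of these data known, and some genes of those lists are not reported here. Text names all 10 genes, in each other list the called genes or else up to 2 genes with the smallest adjusted p, the 10 genes most correlated with the endothelial profile, and called genes within 1 Mb. Genes beyond this rule (Apln, Angpt2, Plxnd1, Eng, Aplnr and genes not well above background) were named after their values were seen. Alternatives were 75th percentile scaling, median centring, normexp (offset 50), the deposited table, other background filters, the methods' Welch test and criteria (as in the report), array weights, blocks, leaving out each sample, and the mean over probes of a gene. Symbols were matched to RefSeq by accession for 28026 of 29796 probes with one.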

Additional observations from a re-analysis of the deposited data

Results flagged for a closer look

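Of 28 groups of 4 values (14 tested probes in FD and wildtype samples), 1 held a value far from its neighbours by Dixon's test. FD sample 3 had the highest Pecam1 value, 7.56 against 7.49 for the next, and this gap made up 0.875 of the range of the FD group. Chance gives such a value in about 1 in 20 groups.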

How the results depend on the processing

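The 10 endothelial genes gave 0 calls under all alternatives but array weights (1, Flt1, -0.46, adjusted p = 0.0210), while leaving out 1 sample gave 0 to 1 (Flt1 without wildtype sample 1 and Vwf without wildtype sample 4). Their median stayed below 0, from -0.23 with the row of the slide as a block to -0.11 with arrays centred on the median, where the median of all probes was 0.08; leaving out 1 sample gave -0.20 to -0.13. Kdr reversed to -0.047 as the mean of its probes, which lay at 0.13 and -0.23. Tek reversed to 0.012 with normexp and to 0.017, 0.025 and 0.070 without FD sample 2, wildtype sample 1 and wildtype sample 3. The cause of the reversals of Tek was not tested. The other 8 genes kept their sign. Across the array 904 probes were called, 602 in the deposited table, 556 without a background filter, 266 by Welch's test, 2102 with array weights and 1774 by the criteria of the methods, and 414 to 1038 without 1 sample. Same-numbered samples did not deviate together (correlations of 0.06, -0.25, -0.05 and -0.02); the replicate block called 284 probes and 0 of the 10 genes. The 4 samples a group, each a pool of 2 mice, limit the precision.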
